A study of Mus musculus with 7 samples.

Results

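Expression of 10 genes of the osteoclast, the bone-resorbing cell, was followed in sorted bone marrow stromal cells: the receptors Oscar, Calcr and Itgb3, the transcription factor Nfatc1, the fusion proteins Ocstamp and Dcstamp, and the resorption genes Ctsk, Acp5, Tcirg1 and Ostm1. They were chosen by gene symbol, with earlier results of these data known. On the platform 8 of the 10 genes were named by 10 probe sets out of 22626, with 2 probe sets each for Oscar and Nfatc1. The signal of Dcstamp and Ostm1 was not analysed here. The mice were OsxCre-mCherry;OcnCre-Topaz double transgenics 4 to 6 weeks old, and cells were sorted 6 days after tamoxifen. Of the 7 arrays, 3 came from Topaz Osteocalcin cells (Ocn+, green, marked through the osteocalcin promoter) and 4 from mCherry Osterix cells (Osx+, red, marked through the osterix promoter). All arrays therefore share genotype, tamoxifen and age, and the groups differ in the reporter by which cells were sorted. Cells with both colours were a sort of their own and were not analysed here. The labels do not tie arrays to animals, so a p-value here reflects the variation among the arrays at hand, part of which may be technical.

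Osteoclasts are large cells with many nuclei that arise by fusion of precursors of the monocyte lineage, so they belong to the blood lineage and not to the osteoblast lineage that the reporters mark. M-CSF and RANKL, made in part by bone-forming cells, drive their formation. RANK signalling together with adaptors that carry ITAM motifs raises NFATc1, which turns on genes of fusion, attachment and acid-driven resorption.

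The signal is a log2 value per probe set and array, normalized by RMA, in which 1 unit is a doubling. Array medians lay between 8.25 and 8.35, and the 25th percentile between 5.56 and 5.65. Without detection calls, a dim signal cannot be placed above or below background. Markers of osteoblasts were bright in both groups, with the mean of the 8 measured of 12 listed markers between 12.99 and 13.53 in Ocn+ arrays and between 12.62 and 13.56 in Osx+ arrays. In whole-population arrays of this kind, fewer cells of a type and less RNA per cell cannot be told apart.

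Oscar, Ocstamp, Ctsk and Acp5 were brighter on every Ocn+ array than on every Osx+ array, by 14.1-fold, 7.58-fold, 1.81-fold and 2.85-fold in the group means (brighter Oscar probe set), while Calcr, Itgb3, Nfatc1 and Tcirg1 overlapped between the groups. None of these differences passed the test over all probe sets (limma, Benjamini-Hochberg adjusted p from 0.676 to 1.00). All 10 member probe sets had a difference above 0, against 50.2% of all probe sets. The arrays were apart with Ocn+ above for 5 of the 10, against 3.99% of all probe sets, and were apart the other way for 0, against 2.56%. An unadjusted limma p under 0.05 with Ocn+ higher was found for the same number, 5 of 10, against 3.09%, and with Ocn+ lower for 0, against 1.76%. A difference over 1 log2 unit was seen for 4 of 10, against 1.82%. These counts hold both Oscar probe sets. With 1 probe set a gene, arrays were apart with Ocn+ above for 4 of 8 genes, against 4.37% of all genes. Unadjusted limma p was under 0.05 with Ocn+ higher for 4 of 8, against 3.49%, and the difference was over 1 for 3 of 8, against 280 of 12393. The median member difference was 0.83 log2 units, and that of all probe sets 0.00. No probe set of the 22626 had an adjusted p under 0.05 (0%), and 1098 (4.85%) had an unadjusted p under 0.05.

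**Figure D1:**
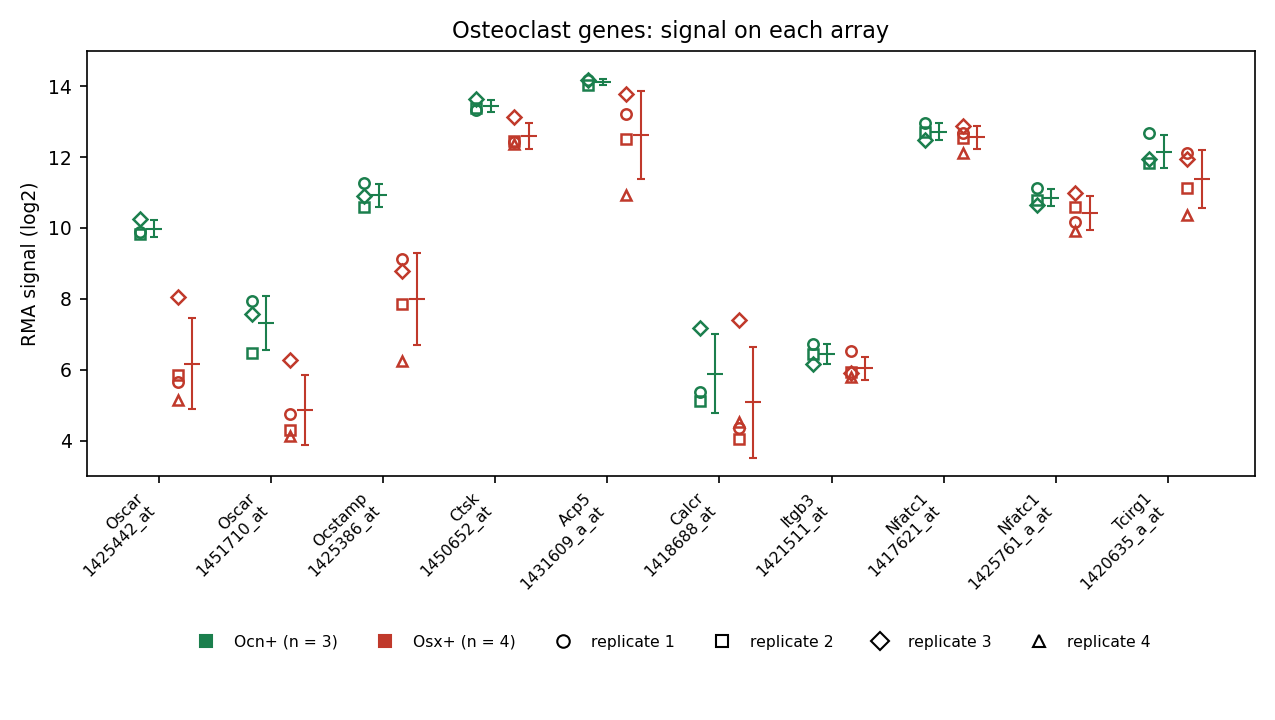
RMA signal (log2, vertical axis) of the 10 probe sets of the osteoclast genes on each of 3 Ocn+ (green) and 4 Osx+ (red) arrays. Symbols mark the replicate number, and bars give mean ± SD. Both Oscar probe sets, Ocstamp, Ctsk and Acp5 have all green symbols above all red ones, and the others overlap.

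Among the genes with arrays apart, Oscar, Ctsk and Acp5 had a promoter window in the RefSeq table, and these are shown because their signals differed in the same direction in every pair of Ocn+ and Osx+ arrays. Each window holds the 250 bases before an annotated start in GRCm38.p6, 5′ to 3′ on the gene's strand. They are chr7:3616158-3616407 on the minus strand for Oscar, chr3:95498960-95499209 on the plus strand for Ctsk and chr9:22130599-22130848 on the minus strand for Acp5. The Acp5 window is 1 of 3 listed for the gene and was picked because, alone among them, it holds the MITF E-box that the Oscar window holds; all 3 hold the NFAT core. Capitals mark matches, on either strand, to 5 motifs: the E-box CATGTG that MITF can bind, another E-box with the letters CACGTG, the PU.1 motif GAGGAA, the NFAT core GGAAA and the AP-1 motif TGANTCA.
Oscar: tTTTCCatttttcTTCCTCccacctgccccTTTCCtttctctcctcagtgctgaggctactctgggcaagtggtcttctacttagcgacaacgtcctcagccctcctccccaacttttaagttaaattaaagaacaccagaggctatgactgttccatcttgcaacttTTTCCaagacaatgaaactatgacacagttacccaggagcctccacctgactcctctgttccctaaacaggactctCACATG
Ctsk: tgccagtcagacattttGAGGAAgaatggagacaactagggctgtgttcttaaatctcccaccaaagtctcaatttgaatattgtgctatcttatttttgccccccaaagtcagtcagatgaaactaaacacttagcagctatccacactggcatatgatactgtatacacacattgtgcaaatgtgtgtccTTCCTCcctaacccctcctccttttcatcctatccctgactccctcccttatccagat
Acp5: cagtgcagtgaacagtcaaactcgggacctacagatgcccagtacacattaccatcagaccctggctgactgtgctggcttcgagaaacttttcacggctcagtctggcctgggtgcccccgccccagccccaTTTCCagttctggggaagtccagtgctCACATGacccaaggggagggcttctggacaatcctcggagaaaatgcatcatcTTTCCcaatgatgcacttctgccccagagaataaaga
The Oscar window held 1 match to CATGTG (on the other strand, beginning 6 bases before the start), 1 to the PU.1 motif and 3 to the NFAT core. The Acp5 window held 1 match to the MITF E-box (beginning 90 bases before the start) and 2 to the NFAT core, and the Ctsk window held 2 to the PU.1 motif. The PU.1 motif and the NFAT core can overlap, and did not in these windows. Over the 11 windows searched, of the 6 member genes Oscar, Ctsk, Acp5, Calcr, Tcirg1 and Ostm1, the MITF E-box was in 2, the PU.1 motif in 3, the NFAT core in 6, and the other E-box and the AP-1 motif in 0. Of 32841 windows of the same length over all genes, 12.3% held the MITF E-box, 23.3% the PU.1 motif, 55.6% the NFAT core, 6.02% the other E-box and 6.75% the AP-1 motif. Windows of Nfatc1 were not searched here. A match of letters is a description of the window and not a binding site.

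Oscar, the osteoclast-associated receptor that binds collagen and signals through an ITAM adaptor, had the largest difference of the members. Probe set 1425442_at read 9.87, 9.81 and 10.26 on Ocn+ replicates 1 to 3 and 5.64, 5.84, 8.04 and 5.14 on Osx+ replicates 1 to 4. The Ocn+ arrays lay close together, and Osx+ replicate 3 stood between them and the other Osx+ arrays, with 1.78 log2 units left between the groups. Osx+ replicates 1, 2 and 4 were dim, close to or below the 25th percentile of the arrays (5.56 to 5.65). The fold for Oscar therefore rests on values that cannot be placed above or below background. The group means were 9.98 ± 0.24 (SD, n = 3) and 6.17 ± 1.28 (SD, n = 4), a difference of 3.82 (SE 0.66, 95% interval 2.27 to 5.37) with a limma adjusted p of 0.676. By its p this probe set ranked 21 of 22626. The 2-sided exact permutation p was 0.0571, the smallest that 3 against 4 arrays allow, as it was for every member whose arrays were apart. Without Osx+ replicate 3 the difference was 4.44 and passed over all probe sets (limma adjusted p = 0.0158). Leaving out this array, the highest of its group, necessarily enlarges the difference. With any other single array left out it did not pass, the lowest limma adjusted p being 0.567 (without Osx+ replicate 1).

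The other Oscar probe set, 1451710_at, kept the same order of groups. It read 7.92, 6.47 and 7.56 on the Ocn+ arrays and 4.74, 4.30, 6.28 and 4.13 on the Osx+ arrays. Osx+ replicate 3 was again the highest of its group, 0.19 below Ocn+ replicate 2. The other Osx+ arrays lay below the 25th percentile of all probe sets. The difference was 2.46 (SE 0.59, 95% interval 1.07 to 3.85), with a limma adjusted p of 0.794. Both probe sets were designed on the same reference transcript, so they are repeat measurements of 1 gene and not independent support.

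Calcr, the receptor through which calcitonin restrains resorption, did not separate the groups. It read 5.36, 5.12 and 7.17 on the Ocn+ arrays and 4.34, 4.04, 7.40 and 4.53 on the Osx+ arrays. High values were seen on 1 array of each group, Ocn+ replicate 3 and Osx+ replicate 3, the latter being the highest of all 7. The difference was 0.81 (SE 0.91, 95% interval -1.33 to 2.95), an interval that spans both directions. Leaving out Ocn+ replicate 3 brought Calcr to 0.16, Osx+ replicate 2 to 0.46 and Osx+ replicate 3 to 1.58. Calcr was the one member probe set whose mean over the arrays lay under the 25th percentile of all probe sets.

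Itgb3, the integrin beta subunit that pairs with Itgav to attach osteoclasts to bone, was also dim. It read 6.72, 6.44 and 6.17 on the Ocn+ arrays and 6.52, 5.93, 5.92 and 5.80 on the Osx+ arrays. Osx+ replicate 1 lay above Ocn+ replicates 2 and 3, and the other Osx+ arrays lay below all Ocn+ arrays. The difference was 0.40 (SE 0.23, 95% interval -0.15 to 0.95; 2-sided exact permutation p = 0.171).

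Nfatc1, the transcription factor that RANK signalling induces, was bright in both groups and nearly level between them. Probe set 1417621_at read 12.96, 12.72 and 12.47 on the Ocn+ arrays and 12.68, 12.55, 12.88 and 12.11 on the Osx+ arrays. Osx+ replicates 1 to 3 lay above Ocn+ replicate 3, and Osx+ replicate 4 was the lowest. The difference was 0.16 (SE 0.23, 95% interval -0.38 to 0.70). Probe set 1425761_a_at read 11.12, 10.80 and 10.64 on the Ocn+ arrays and 10.15, 10.60, 10.99 and 9.92 on the Osx+ arrays. Its difference was 0.44 (SE 0.29, 95% interval -0.24 to 1.12), and Osx+ replicate 3 lay above Ocn+ replicates 2 and 3.

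Ocstamp, a membrane protein needed for the fusion of osteoclast precursors, had the second largest difference among the member genes. It read 11.27, 10.60 and 10.89 on the Ocn+ arrays and 9.12, 7.86, 8.77 and 6.23 on the Osx+ arrays. The groups were 1.48 log2 units apart, and Osx+ replicate 4 was well below the other Osx+ arrays. The means were 10.92 ± 0.34 (SD, n = 3) and 7.995 ± 1.29 (SD, n = 4), a difference of 2.92 (SE 0.67, 95% interval 1.35 to 4.50) with a limma adjusted p of 0.791. Its rank by p was 84 of 22626.

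Ctsk, the acid protease that cuts collagen in the resorption space, showed a small difference and little spread. It read 13.33, 13.37 and 13.64 on the Ocn+ arrays and 12.41, 12.45, 13.14 and 12.37 on the Osx+ arrays. Osx+ replicate 3 lay 0.19 below the lowest Ocn+ array, while the other Osx+ arrays lay within 0.1 of each other. The means were 13.45 ± 0.17 (SD, n = 3) and 12.59 ± 0.37 (SD, n = 4), a difference of 0.86 (SE 0.23, 95% interval 0.31 to 1.40) with a limma adjusted p of 0.848.

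Acp5, the tartrate-resistant acid phosphatase used as a histological stain for osteoclasts, was near constant on the Ocn+ arrays and spread over the Osx+ arrays. It read 14.16, 14.03 and 14.17 on the Ocn+ arrays and 13.22, 12.51, 13.78 and 10.92 on the Osx+ arrays. Osx+ replicate 3 came within 0.24 of the Ocn+ arrays, and Osx+ replicate 4 was the lowest. The means were 14.12 ± 0.08 (SD, n = 3) and 12.61 ± 1.24 (SD, n = 4), a difference of 1.51 (SE 0.63, 95% interval 0.02 to 3.00) with a limma adjusted p of 1.00. Without Osx+ replicate 4 the difference was 0.95.

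Tcirg1, the a3 subunit of the proton pump that acidifies the resorption space, overlapped between the groups. It read 12.68, 11.83 and 11.95 on the Ocn+ arrays and 12.11, 11.13, 11.95 and 10.36 on the Osx+ arrays. Osx+ replicates 1 and 3 lay within the Ocn+ range, and replicates 2 and 4 below it. The difference was 0.77 (SE 0.46, 95% interval -0.32 to 1.86; 2-sided exact permutation p = 0.343). Leaving out Osx+ replicate 4 brought Tcirg1 to 0.43, and leaving out Ocn+ replicate 1 to 0.50.

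The Osx+ arrays differed among themselves in a like order for most members. Osx+ replicate 3 was the highest of its group for 7 of 10 member probe sets, against 23.6% of all probe sets, and Osx+ replicate 4 the lowest for 9 of 10, against 19.8%. The SD was larger in Osx+ than in Ocn+ arrays for 10 of 10 members, against 75.3% of all probe sets. Taking 1 probe set for each of the 8 genes, the mean signal was 10.79, 10.49 and 10.84 on the Ocn+ arrays and 9.51, 9.04, 10.24 and 8.43 on the Osx+ arrays. No Osx+ array reached the lowest Ocn+ array in this mean, with Osx+ replicate 3 nearest.

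The arrays also fell into classes by Xist, the RNA of the inactive X chromosome. Xist read 12.33 to 12.96 on Ocn+ replicates 2 and 3 and Osx+ replicates 2 and 4, and 4.87 to 5.79 on Ocn+ replicate 1 and Osx+ replicates 1 and 3. The brighter Oscar probe set differed by 4.54 among the high-Xist arrays and by 3.03 among the low-Xist arrays, and Ocstamp by 3.70 and 2.32. Ctsk differed by 1.10 and 0.56, Acp5 by 2.38 and 0.66, and Tcirg1 by 1.15 and 0.66. Both Nfatc1 probe sets and Itgb3 stayed between 0.18 and 0.55 in either class. Calcr changed sign, at 1.86 and -0.51. The low-Xist values rest on a single Ocn+ array and have no test. With the class as a term in the model the Oscar difference was 3.94 (limma adjusted p = 0.107) and the Ocstamp difference 3.15 (adjusted p = 0.101).

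**Figure D2:**
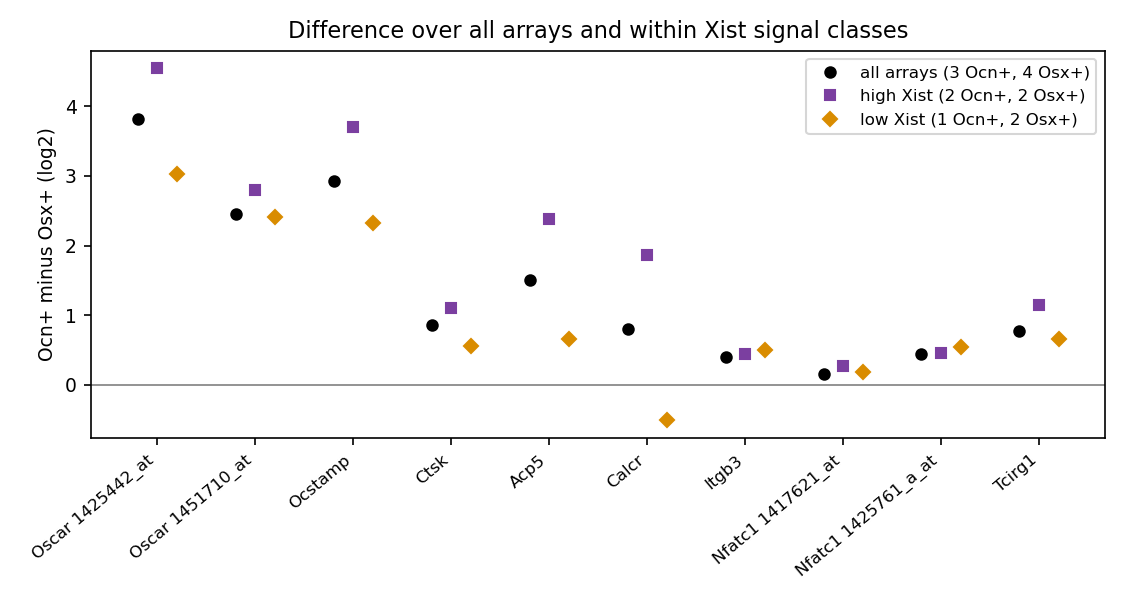
Difference in log2 signal, Ocn+ minus Osx+ (vertical axis), for each member probe set over all arrays (black), among the 2 Ocn+ and 2 Osx+ arrays with high Xist signal (purple) and among the 1 Ocn+ and 2 Osx+ arrays with low Xist signal (orange). All points lie above 0 except the low-Xist value of Calcr, at -0.51.

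Beyond the members, 46 other genes of osteoclast formation and function were grouped by role, of which 42 were measured, each by its brightest probe set. None of the 42 passed over all probe sets. An unadjusted limma p under 0.05 was found for 4 with Ocn+ higher and 1 with Ocn+ lower, where 3.49% and 1.86% of all genes had one. Differences above 0 were found for 31 of 42, against 52.7% of all genes, and the arrays were apart with Ocn+ higher for 3, against 4.37%. Their median difference was 0.09, against 0.02 for all genes and 0.83 for the members.

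All 6 genes of cytokine control had a small difference above 0, with a median of 0.22 and a range of 0.04 to 0.36. That median dropped to 0.12 when Osx+ replicate 4 was left out and to 0.15 when Ocn+ replicate 1 was. Csf1, the gene of M-CSF, differed by 0.36 (SE 0.38) and its receptor gene Csf1r by 0.28 (SE 0.39). Tnfsf11, which encodes RANKL, and Tnfrsf11a, which encodes RANK, were looked at after their values were seen and differed by 0.07 (SE 0.41) and 0.27 (SE 0.66).

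The group of ITAM adaptors and kinases also held the receptor gene Trem2 and the phospholipase gene Plcg2. Its median difference was 0.05, with 6 of 9 above 0. This median had no stable direction, at -0.30 without Osx+ replicate 4, -0.11 without Ocn+ replicate 1, -0.02 without Osx+ replicate 3 and up to 0.35 without Osx+ replicate 1. Src, a kinase needed for the ruffled border, was the one with an unadjusted p under 0.05. It read 8.53, 7.90 and 7.78 on the Ocn+ arrays and 7.94, 6.95, 6.88 and 6.69 on the Osx+ arrays, so that Osx+ replicate 1 overlapped the Ocn+ range. Its difference was 0.95 (SE 0.35; limma adjusted p = 0.994), and its other probe set gave 1.08 (SE 0.45). Fcer1g, the adaptor through which Oscar signals, was picked after its values were seen. It read 12.48, 12.02 and 12.36 on the Ocn+ arrays and 12.98, 12.66, 12.07 and 11.29 on the Osx+ arrays, a difference of 0.04 (SE 0.40, 95% interval -0.91 to 0.98).

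The 10 measured transcription factors and repressors had a median difference of 0.16. It lay between 0.10 (without Osx+ replicate 4) and 0.30 (without Osx+ replicate 1) with single arrays left out. Bcl6, a repressor of osteoclast genes, was the one with an unadjusted p under 0.05, and it was lower in Ocn+ cells. It read 10.34, 10.43 and 10.40 on the Ocn+ arrays and 10.98, 10.95, 10.76 and 10.50 on the Osx+ arrays, with the groups 0.08 apart. The difference was -0.41 (SE 0.17; limma adjusted p = 1.00), and the other, dimmer Bcl6 probe set differed the other way, by 0.34 (SE 0.28).

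The fusion and adhesion genes, measured without Atp6v0d2, had a median difference of -0.02, with 3 of 7 above 0. With single arrays left out the median ran from -0.24 (without Osx+ replicate 3) to 0.12 (without Ocn+ replicate 1), in either direction. Adam8, a surface metalloprotease, differed by -0.62 (SE 0.49) and the tetraspanin Cd9 by 0.35 (SE 0.37), the 2 of smallest p in this group. The fusion gene Ocstamp, at 2.92, lay outside the range of these genes, which ran from -0.62 to 0.35. The genes were chosen with results known, so this is a description.

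The genes of acid secretion and matrix cleavage had a median difference of 0.38, with 8 of 10 above 0. It was 0.18 without Ocn+ replicate 1, 0.25 without Osx+ replicate 2 and 0.27 without Osx+ replicate 4, and at most 0.51 with any array left out. Mmp9, the gelatinase made by osteoclasts and by neutrophils, read 13.94, 13.97 and 14.03 on the Ocn+ arrays and 12.60, 12.46, 13.41 and 11.01 on the Osx+ arrays. As with Acp5, the Ocn+ arrays were close together and Osx+ replicates 3 and 4 were the highest and lowest of their group. Its difference was 1.61 (SE 0.51; limma adjusted p = 0.942), and the other Mmp9 probe set gave 2.36 (SE 0.66).

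Snx10, a sorting nexin of osteoclast vesicles, read 10.38, 11.10 and 11.51 on the Ocn+ arrays and 8.96, 10.34, 10.34 and 9.09 on the Osx+ arrays. The groups were 0.04 apart, and the difference was 1.31 (SE 0.46; limma adjusted p = 0.985). Atp6v1b2, a subunit of the proton pump, differed by 0.92 (SE 0.33; limma adjusted p = 0.999) with the groups 0.13 apart, and its other probe sets gave 1.04 and 1.16. Other genes of acid transport had smaller differences, among them Clcn7, the chloride exchanger, at 0.37 (SE 0.30), and Car2, the carbonic anhydrase that supplies protons, at 0.64 (SE 0.51), both picked after their values were seen. Plekhm1 was not analysed here.

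**Figure D3:**
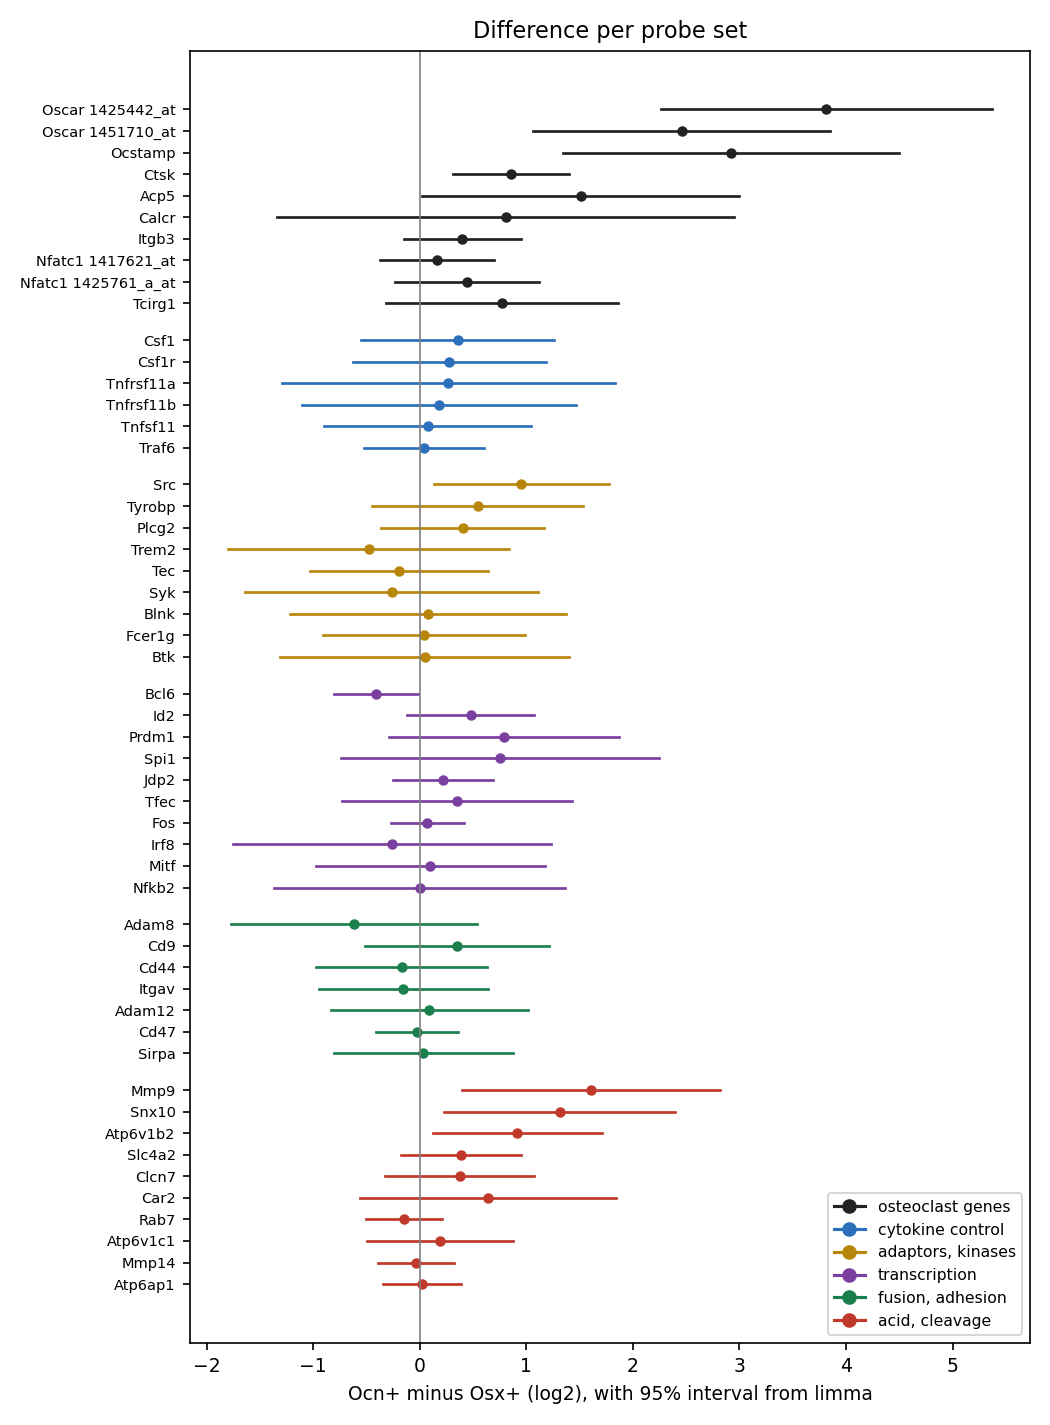
Difference in log2 signal, Ocn+ minus Osx+ (horizontal axis), with its 95% interval from limma, for the 10 member probe sets (black) and the 42 measured genes of the pathway by role (colours). Oscar and Ocstamp lie farthest to the right, and most pathway intervals cross 0.

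Marker lists of other cell types were set beside the members on the same arrays, and their order among the Osx+ arrays matched only in part. The mean of 10 endothelial markers lay between 9.96 and 10.57 on Ocn+ arrays and between 6.36 and 9.24 on Osx+ arrays. Osx+ replicate 3 was the highest of its group, as for 7 member probe sets. Osx+ replicate 2 was the lowest and replicate 4 read 7.17, whereas 9 member probe sets were lowest on replicate 4. All 10 endothelial markers had a difference above 0, against 52.7% of all genes, and 7 had arrays apart with Ocn+ higher, against 4.37%. The brightest, Eng, Plvap and Emcn, differed by 0.56, 2.92 and 2.85. The mean of 11 neutrophil markers lay between 10.93 and 11.15 on Ocn+ arrays and between 7.38 and 10.59 on Osx+ arrays, with Osx+ replicate 2 highest and replicate 4 lowest. All 11 had a difference above 0 and 8 had arrays apart, with Ctsg, Elane and Prtn3, picked after their values were seen, at 4.29, 3.64 and 3.61. The 3 brightest, S100a9, S100a8 and Camp, differed by 0.54, 0.79 and 2.52. Macrophage markers, from the lineage that also gives rise to osteoclasts, stood the other way, with a mean of 11 markers between 8.33 and 9.504 on Ocn+ arrays and between 9.80 and 10.87 on Osx+ arrays. Of the 11 macrophage markers 1 had a difference above 0, and 2 had arrays apart with Ocn+ lower, as had 314 of all 12393 genes. The brightest of these markers were Cd68, which differed by 0.26 (SE 0.40), C1qb by -1.17 (SE 0.51) and Ms4a7 by -1.85 (SE 0.47). The brightest osteoblast markers, Col1a2, Col1a1 and Alpl, differed by 0.02, -0.05 and 0.12. No marker of the 4 lists passed over all probe sets, and the part of these cell types in the member differences was not tested.

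**Figure D4:**
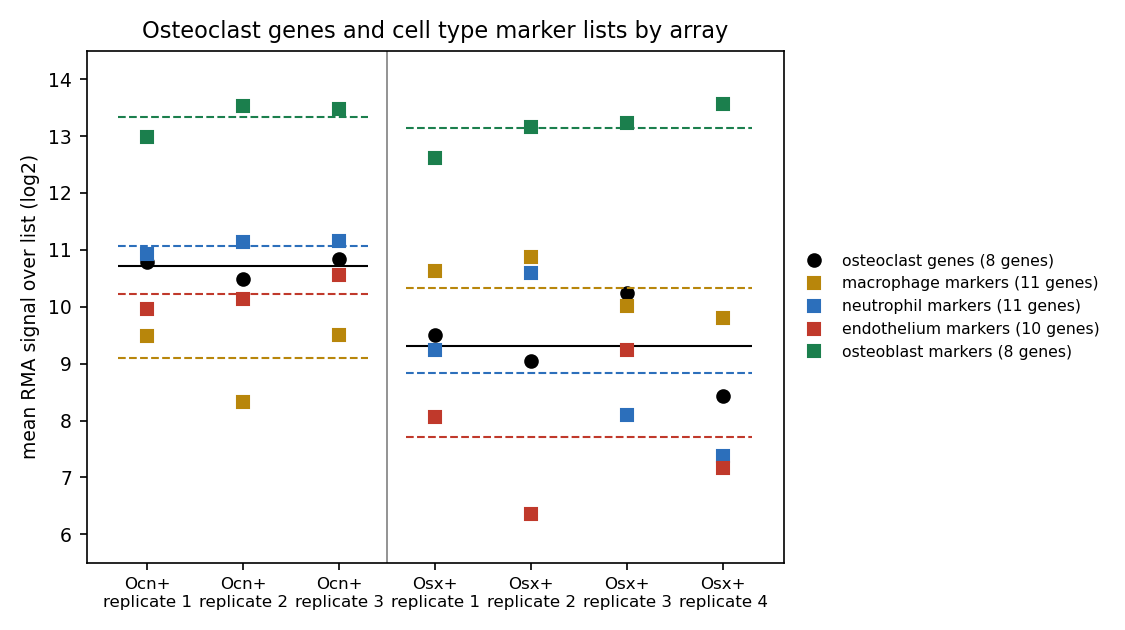
Mean RMA signal (log2, vertical axis) of the 8 osteoclast genes (black circles) and of 4 marker lists (squares) on each array, with group means as lines. Levels of different lists are not comparable, and the pattern across arrays is what the plot shows. Osteoclast, endothelial and neutrophil means are higher on all Ocn+ arrays than on any Osx+ array, the macrophage mean is lower, and the osteoblast mean overlaps.

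The genes whose profile over the 7 arrays was most like that of Oscar were found by the root mean square difference of log2 values, each centred on its own mean. The 6 nearest among 12393 genes, members and unnamed clones left out, were Sox7 (0.60), Myct1 (0.62), Flt4 (0.64), Slc9b2 (0.66), Clec14a (0.68) and Ctla2a (0.82). Their differences between Ocn+ and Osx+ cells were 2.97, 3.36, 2.99, 2.74, 2.75 and 2.37. A choice by likeness to Oscar favours genes with a large difference of the same sign, so these differences are no separate finding. All of these values come from the same 7 libraries. All 6 genes lay nearer to Oscar than any member did, and 1 of them, Flt4, is also on the endothelial marker list. What this likeness rests on was not tested. The nearest member was Ocstamp, at 0.94, followed by Acp5 at 1.28 and Ctsk at 1.58, and the farthest was Nfatc1, at 1.95. By nearness to Oscar among all genes their ranks were 19, 62, 213 and 2040.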

How the data were processed

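Total RNA of sorted cells was extracted with Trizol, amplified by the NuGEN Ovation V2 process and labelled with biotin, per the labels' protocols. The authors deposited a single table of log2 values, which RMA produced according to the submitters' processing notes. Software version and genome build were not given in the sources used here. Such amplification is biased to the 3′ end of transcripts, and RMA forces equal distributions, so a change in total RNA per cell cannot be read. Precision is limited by how many arrays there are, since an array has no read depth.

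After removal of 64 controls, 22626 probe sets were compared between Ocn+ and Osx+ arrays with lmFit and eBayes of limma 3.58.1 (R 4.3.3, 2-sided, no block, no filter on dim signal), with Benjamini-Hochberg adjustment over all of them and a threshold of 0.05. Gene names came from the platform annotation, updated through Entrez identifiers. Among the probe sets 20380 had 1 symbol (20351 matched to a current one), 691 several and 1555 none listed. Fold is the ratio of the means of log2 values taken back to the linear scale. Groups came from sample titles. Replicate numbers were not used to pair the arrays, since the labels do not tie them to animals. Same-numbered deviations correlated at 0.66, 0.48 and -0.36 (numbers 1 to 3). Over all pairs of an Ocn+ and an Osx+ array, correlations were positive within an Xist class and negative between classes. They therefore cannot decide whether arrays share animals.

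Members, lists and alternatives were chosen with earlier results of these data known. Named were all member probe sets, per pathway list up to 5 genes with an unadjusted p under 0.05 or else the 2 of smallest p, per marker list the 3 brightest, and the 6 genes most like Oscar. The Xist class (over or under 8) had been defined on these data. Alternatives were the replicate block, leaving out each array, filters on dim signal, median centring, quantile normalization, array weights, a trended robust prior, 1 probe set or the mean per gene, a threshold of 0.1 and the Xist class. Promoter windows are from RefSeq (GRCm38.p6). The fit was tested on simulated data for 22626 probe sets, drawn from their observed means and spreads. It recovered 24.6%, 61.4%, 79.4% and 87.0% of probe sets shifted by 1, 2, 3 and 4 log2 units. False calls numbered 7.7 per run. These shares hold for the simulated data only and are not the chance of a call on the real arrays. There the SD was larger in Osx+ than in Ocn+ arrays for 75.3% of probe sets. No probe set was called there, and Oscar 1425442_at, at 3.82, had a limma adjusted p of 0.676. How well the simulated spread matched the real arrays was not tested.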

Additional observations from a re-analysis of the deposited data

Results flagged for a closer look

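On Osx+ replicate 3, Ctsk stood apart from the other Osx+ arrays, at 13.14 log2 units where the others lay between 12.37 and 12.45. Calcr stood apart on the same array, at 7.40 where the others lay between 4.04 and 4.53. Both values are far from the rest of their group by a test of the gap against the range, applied to 10 member probe sets in the Osx+ group, and chance flags about 1 in 20 groups. Without that array the differences between Ocn+ and Osx+ cells were 1.04 for Ctsk (limma adjusted p = 0.229) and 1.58 for Calcr (adjusted p = 0.708).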

How the results depend on the processing

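Of 191 values of the member probe sets under 20 alternatives, 190 kept the direction reported and 1 reversed, Calcr at -0.51 among the low-Xist arrays, where a single Ocn+ array enters. Part of this count was fixed in advance. The threshold of 0.1, the trended robust prior, the filters on dim signal and 1 probe set a gene cannot change a member difference. The threshold, the prior and 1 probe set a gene leave the list medians unchanged as well. Member probe sets past the threshold numbered 0 in the report and 0 to 1 with each array left out in turn, the 1 being Oscar 1425442_at without Osx+ replicate 3. With array weights 2 passed, Oscar 1425442_at (4.26, limma adjusted p = 0.0346) and Ocstamp (3.56, adjusted p = 0.0475), in a fit whose weights ran from 0.23 to 6.07 and were estimated on the same arrays. Over all probe sets the number called was 0 in the report, 0 to 5 with each array left out, of which 2 without Osx+ replicate 2 and 5 without Osx+ replicate 3, 68 with array weights, 1 with the Xist class as a term and 6 within the high-Xist arrays; the cause was not tested. No pathway gene was called under any alternative with a test. With the replicate number as a block 0 probe sets were called and Oscar 1425442_at differed by 3.48 (limma adjusted p = 0.605). The block leaves no information in Osx+ replicate 4, which has no partner, so its differences equal those without that array. The brighter Oscar difference ranged from 3.03 to 4.54 over all alternatives, that of Ocstamp from 2.32 to 3.70, Ctsk from 0.56 to 1.10 and Acp5 from 0.66 to 2.38. Leaving out probe sets under the 25th percentile of mean signal kept 9 of 10 members, without Calcr, and under the median 6 of 10, without Oscar, Calcr and Itgb3. Of 100 list medians under the alternatives 3 moved by more than the spread between arrays, all of the cytokine control list, to 0.12 with the replicate block and without Osx+ replicate 4 and to 0.32 when a gene's probe sets were averaged.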
